A study of Homo sapiens with 2 samples.

Results

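The 10 genes described here code for proteins that oppose mitogen-activated protein kinase signalling, most of them by damping the kinase ERK after growth factors have switched it on: the dual-specificity phosphatases DUSP1, DUSP4, DUSP5, DUSP6 and DUSP10, the Sprouty proteins SPRY1, SPRY2 and SPRY4, and the Sprouty-related proteins SPRED1 and SPRED2. They were chosen by name, as rows of the array annotated with that 1 gene symbol, and all 10 were found among 22413 genes with a row of their own. Their RNA was compared on 2 Affymetrix arrays of MHCC97H, a cell line from a human liver cancer. One array held RNA of MHCC97H cells with GP73 knocked down, and the other held RNA of MHCC97H control cells, which the labels call high in GP73. GP73 is a Golgi membrane protein coded by GOLM1. Both cultures grew in medium with 10% fetal bovine serum, and no further treatment is given. The sample titles write the knockdown as shGP73 and the control as shv, and the sources used here give neither the sequence of the knockdown reagent nor whether the cells were 1 clone or a mixed population.

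Growth factor receptors activate ERK through RAS, RAF and MEK, and active ERK then induces genes whose products oppose it. The DUSP proteins remove the activating phosphates from the kinases themselves, some in the nucleus and some in the cytoplasm. Sprouty and SPRED proteins act earlier, at the membrane, between the receptor and RAF. The RNA of several of these genes is therefore often read as a gauge of ERK activity, although their RNA also responds to other signals.

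With 1 array per condition there was no replicate error and no test between conditions for any value below, and every value describes these arrays alone. The values are log2 signals, and a difference is the knockdown signal minus the control signal. A gene was called measured when the higher of its signals reached 5.84, a floor that 11207 of the 22413 genes passed. Signals of different genes come from different probes and are not ranked against each other. The arrays had median signals of 4.80 in the knockdown and 4.72 in the control. GOLM1 had a signal of 7.46 in the knockdown array, against 9.13 in the control array, the lowest difference of any measured gene in the signals as deposited, at -1.67. Error within an array was gauged from 100 genes with 2 distinct measured rows each, whose paired differences had a within-gene SD of 0.133. That SD does not cover variation between cultures, and each of the 10 genes had 1 row only. Markers of liver origin passed the floor at a share near that of all genes. Of 18 hepatocyte and liver cancer markers with a row, 11 were measured, beside 11207 of all 22413 genes. At or above 5.84 were 9 in the knockdown array and 10 in the control array. KRT8, KRT18 and APOH were among them, whereas albumin and AFP were below it in both. Of 11 leukocyte markers, 4 were above it in the knockdown array and 2 in the control array, and PTPRC, the pan-leukocyte marker, was at 2.42 in the knockdown array and 2.34 in the control array.

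The genes differed little between the arrays, and DUSP1 was the exception. DUSP1 was the only one of the 10 at least 1.5-fold higher, beside 1.08% of all measured genes, and none of the 10 was at least 1.5-fold lower, beside 1.55% of all measured genes. Those shares are 121 genes higher and 174 lower, and the split was 66 and 356 with median centring, 59 and 235 with a trend over gene span removed, and 75 and 241 with trends over signal and span removed. Under each of those 3 settings DUSP1 was below 1.5-fold, and none of the 10 genes was past it. Of the 9 measured, 6 were higher by any amount, against 47.8% of measured genes, and 3 were lower, against 50.5% of measured genes. DUSP10 had equal values. Apart from DUSP1, the other 9 of the 10 differed by at most 1.24-fold, and 4 of the 10 lay within the within-array SD of 0.133. The median difference of the 9 measured was 0.13, and that of all measured genes was -0.01. Over all 10 genes it was 0.11, beside 0.06 over all 22413 genes with a row. DUSP10 was below the floor in both arrays, so 9 of the 10 counted as measured, and each of these 9 was above the floor in both arrays.

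**Figure D1:**
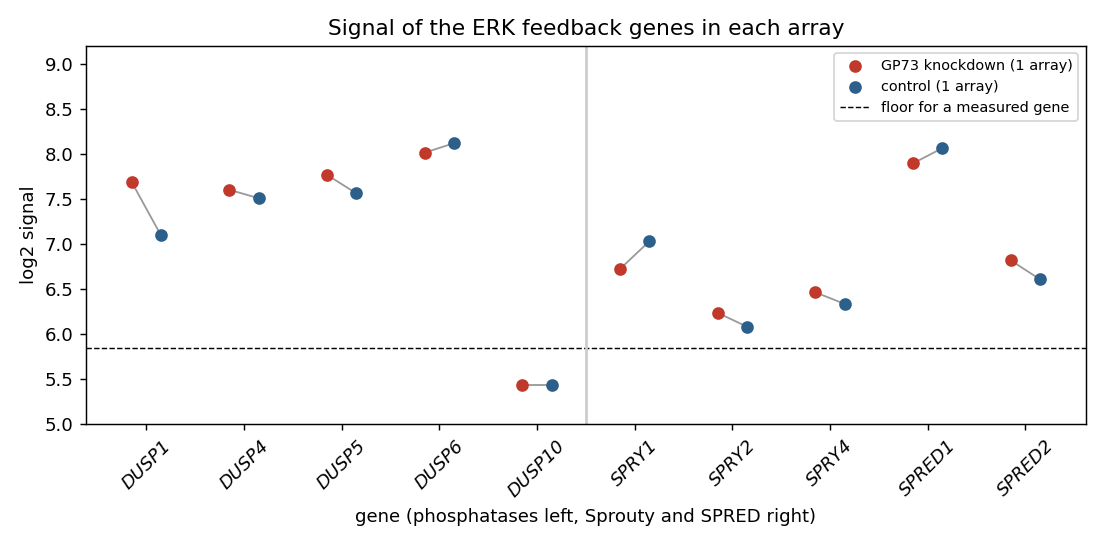
Log2 signal (vertical axis) of each of the 10 genes (horizontal axis) in the GP73 knockdown array (red, left) and the control array (blue, right), 1 point per array, with the floor of 5.84 dashed. DUSP1 has the widest gap, at 7.69 in the knockdown and 7.10 in the control, SPRY1 slopes the other way, and DUSP10 is below the floor.

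The sequence upstream of the genes at either end of this range is shown to make them concrete, since DUSP1 had the highest and SPRY1 the lowest difference of the 10. Each sequence is the 250 bases before an annotated transcript start, read 5′ to 3′ on the strand of the gene, from RefSeq on build GRCh38.p14. DUSP1 has 1 start in that table, at chr5:172771196-172771445 on the minus strand for the bases shown. SPRY1 has 2 starts on the plus strand, with the bases shown at chr4:123396545-123396794 for the upstream start and chr4:123398136-123398385 for the downstream start. Capitals mark the cAMP response element TGACGTCA, its shorter core TGACG, the ETS core CCGGAA, the E-box CACGTG and the TATA motif TATAAA, each searched on both strands.
DUSP1: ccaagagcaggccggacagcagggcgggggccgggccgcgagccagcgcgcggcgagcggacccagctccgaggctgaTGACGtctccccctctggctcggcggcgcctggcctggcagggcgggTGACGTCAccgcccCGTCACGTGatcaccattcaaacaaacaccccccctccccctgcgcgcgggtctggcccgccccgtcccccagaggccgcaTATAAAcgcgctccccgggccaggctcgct
SPRY1, upstream start: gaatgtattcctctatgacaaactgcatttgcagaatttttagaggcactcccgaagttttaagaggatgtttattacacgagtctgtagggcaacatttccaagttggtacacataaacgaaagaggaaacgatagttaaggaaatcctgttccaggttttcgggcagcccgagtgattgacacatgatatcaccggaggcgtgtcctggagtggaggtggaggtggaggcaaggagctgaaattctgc
SPRY1, downstream start: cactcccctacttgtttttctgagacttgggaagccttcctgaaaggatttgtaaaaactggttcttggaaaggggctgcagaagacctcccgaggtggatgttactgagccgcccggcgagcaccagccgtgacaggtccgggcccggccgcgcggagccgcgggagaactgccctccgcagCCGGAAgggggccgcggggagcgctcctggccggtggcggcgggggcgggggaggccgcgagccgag

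The promoter table matched 8 of the 10 genes, with 13 windows in all, and had no entry for DUSP4 and DUSP5. The full cAMP response element stood in the DUSP1 window alone among these 13, 125 bases before the start, and in 1.65% of the 35116 promoters of the table. The core TGACG stood in the windows of DUSP1, SPRY2 and SPRY4, and in 21.2% of all promoters. DUSP1 had 4 matches to that core, of which those at 125 and 122 bases are the overlapping strands of the full element, and the one at 111 bases overlaps the E-box at 108 bases. The E-box was found in the DUSP1 window and in 6.34% of all promoters. The TATA motif stood 30 bases before the DUSP1 start and 31 bases before one of the SPRED2 starts, and in 10.7% of all promoters. The ETS core was found in windows of SPRY1 and SPRY2 and in 14.5% of all promoters. The GC box GGGCGG, not capitalised above, was found in windows of 6 of the 8 genes and in 42.6% of all promoters. No window of the 8 genes held the AP-1 motif TGANTCA, found in 6.57% of all promoters, or the CArG box, found in 1.16%. The GC content of the windows ranged from 39.2% to 78.4%, around a median of 58.0% over all promoters. These matches are letters in a window and are not measurements of binding.

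Among the nuclear phosphatases all 3 were higher in the knockdown array, by unequal amounts. DUSP1, an immediate early gene whose nuclear product acts on p38, JNK and ERK, had a log2 signal of 7.69 in the knockdown array, against 7.10 in the control array (transcript cluster TC05002066.hg.1). That is a difference of 0.59, or 1.51-fold, just past the 1.5-fold line. Counting DUSP1 itself, 115 of the 11207 measured genes had a difference at least as high. Among the 500 measured genes closest to it in mean signal, 6 did. DUSP5, a nuclear phosphatase selective for ERK, had 7.77 in the knockdown and 7.56 in the control array (TC10000801.hg.1), a difference of 0.21 that 2186 measured genes equalled or exceeded. DUSP4, which acts in the nucleus on ERK and JNK, had 7.60 in the knockdown and 7.51 in the control array (TC08001099.hg.1), a difference of 0.09. DUSP4 was therefore inside the within-array SD and DUSP5 somewhat outside it.

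DUSP6, the cytoplasmic phosphatase most specific for ERK and a standard readout of ERK activity, did not follow DUSP1. Its log2 signal was 8.02 in the knockdown and 8.12 in the control array (TC12001796.hg.1), a difference of -0.10, smaller than the within-array SD. DUSP10, which acts on JNK and p38 rather than on ERK, had 5.44 in both arrays (TC01003847.hg.1), below the floor. Equal values in the arrays were found in 4359 of the 70523 rows, or 6.18%, so the equality is not peculiar to DUSP10, and a change of its RNA below the floor cannot be seen here.

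The Sprouty and SPRED genes pointed in both directions. SPRY1, a membrane-associated inhibitor of receptor tyrosine kinase signalling, was at 6.72 in the knockdown array and 7.03 in the control array (TC04000632.hg.1). Its difference of -0.31, or 1.24-fold lower, was the lowest of the 10 genes, and 1435 measured genes were at least as low. SPRY2, which also binds the ubiquitin ligase CBL, was at 6.24 in the knockdown and 6.08 in the control array (TC13000763.hg.1), a difference of 0.15. SPRY4, which can bind RAF, was at 6.46 in the knockdown and 6.33 in the control array (TC05001880.hg.1), a difference of 0.13. The 3 Sprouty genes were thus spread over 0.46 log2 units, with SPRY1 apart from the other two.

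The SPRED genes also split. SPRED1, which brings the RAS inhibitor neurofibromin to the membrane, was at 7.90 in the knockdown and 8.07 in the control array (TC15000259.hg.1), a difference of -0.17. SPRED2, its close relative, was at 6.82 in the knockdown and 6.61 in the control array (TC02001923.hg.1), a difference of 0.21, nearly that of DUSP5. Each of these differences was between 1 and 2 times the within-array SD.

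Phosphatases and membrane inhibitors did not separate as groups. Over all 5 phosphatases the median difference was 0.09 and the mean 0.16, and over all 5 Sprouty and SPRED genes the median was 0.13 and the mean 0.00. The difference of the medians was -0.04 with DUSP10 and 0.02 without it, so its sign rested on a gene below the floor. The difference of the means over the measured genes was 0.19. The groups overlapped: the range was -0.10 to 0.59 for the phosphatases and -0.31 to 0.21 for the Sprouty and SPRED genes. A finer division by site gave the nuclear phosphatases a median of 0.21, against -0.10 for DUSP6 in the cytoplasm, which is a comparison of 3 genes with 1.

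The direction of each measured gene was the same under every scaling tried, but the 1.5-fold call of DUSP1 was not. DUSP1 ranged from 0.45 to 0.66. It stood at 0.51 with the arrays centred on their medians, 0.45 with a trend over gene span removed, and 0.53 with trends over signal and span removed, all under the 1.5-fold line at 0.58. It stood at 0.64 with quantile normalisation and 0.66 with the trend over signal removed. DUSP6 ranged from -0.20 to -0.03, SPRY1 from -0.39 to -0.28, SPRED1 from -0.25 to -0.02 and SPRED2 from 0.12 to 0.30. DUSP4 came as low as 0.01 and SPRY2 as low as 0.01, so that their direction has little weight. Median centring moves the median of all measured genes to -0.10, and the differences under it are to be read against that shift.

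**Figure D2:**
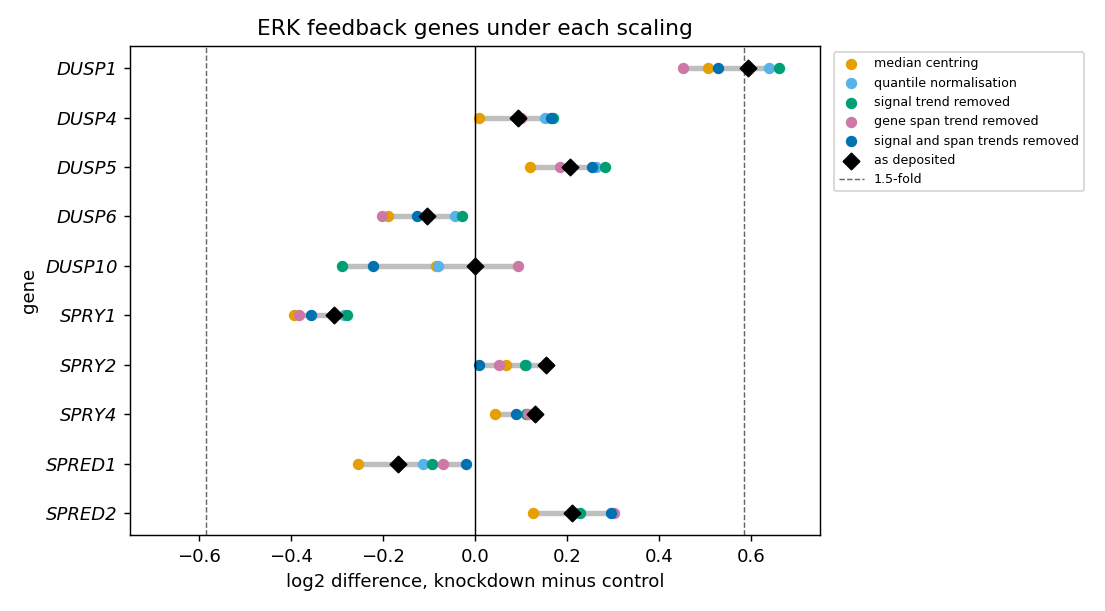
Log2 difference, knockdown minus control (horizontal axis), of each gene (vertical axis) as deposited (black diamonds) and under 5 other scalings (coloured points), with grey bars from the lowest to the highest value and dashed lines at 1.5-fold. DUSP1 spans 0.45 to 0.66 across the 1.5-fold line, SPRY1 stays between -0.39 and -0.28, and DUSP10, which lies below the floor, runs from -0.29 to 0.09.

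The differences between these arrays followed the span of the gene, from its first to its last annotated base, and this bears on each of the 10 genes. Over 9914 measured protein-coding genes Spearman's rho between span and difference was -0.31, a description across genes that share both arrays. With these genes put in 10 equal bins by span, in bin 1, of 0.208 to 4.47 kb, the median difference was 0.17 and 76.8% of genes were higher in the knockdown array. In bin 9, of 81.1 to 135.5 kb, the median was -0.12 and 32.7% were higher. Bin 7, of 38.1 to 53.1 kb, was already at -0.11 and 30.7%, and bin 10, of the longest genes, was at -0.08 and 36.0%. The fall with span was thus among the shorter genes. The difference also fell with mean signal, with a rho of -0.21 over the 11207 measured genes. In the lowest of 10 bins by signal the median was 0.15 and 67.2% were higher. The 500 measured genes closest to DUSP1 in signal had a median of -0.09. What moves with span or signal was not tested.

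Most ERK feedback genes are short, as is common among rapidly induced genes. Of the 10, 7 spanned under 20 kb, and SPRED1 and SPRED2 spanned over 100 kb. DUSP1 spans 3.10 kb, and the 500 measured coding genes closest to it in span had a median of 0.16, with 12 of them at least as high as DUSP1. SPRY1 spans 6.97 kb, and its 500 neighbours in span had a median of 0.08, with 31 of them at least as low as SPRY1. DUSP6 spans 5.27 kb and lay 0.23 below the median of its neighbours, of which 86 were at least as low. SPRED2 spans 125.4 kb and lay 0.32 above the median of its neighbours, of which 44 were at least as high. SPRED1, at 104.4 kb, lay 0.06 below its neighbours, and SPRY2, at 5.15 kb, 0.03 above them. Beside genes of their own span, then, the highest of the 10 were DUSP1 and SPRED2, and the lowest were SPRY1 and DUSP6.

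**Figure D3:**
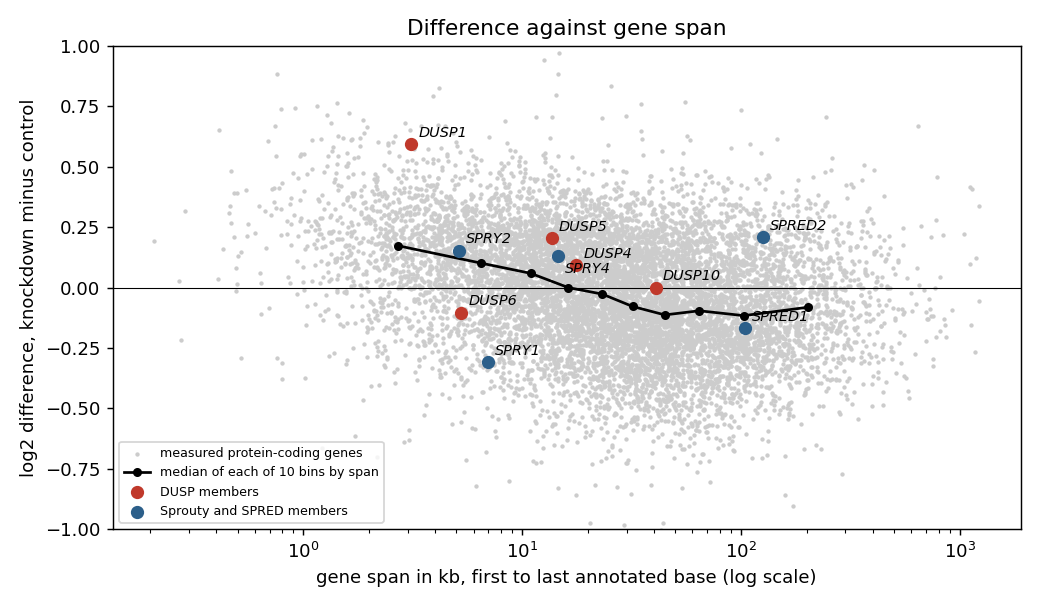
Log2 difference, knockdown minus control (vertical axis, cut at 1 on both sides, which leaves out 17 of the 9914 genes), against gene span in kb (horizontal axis, log scale) for measured protein-coding genes (grey), with the median of each of 10 bins of genes by span (black) and the 10 genes in red and blue. The black line runs from 0.17 for the shortest genes to -0.12 for the bin around 103.0 kb, with DUSP1 and SPRED2 above it and SPRY1 and DUSP6 below it.

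None of the measured relatives passed 1.5-fold, beside 1.08% of all measured genes higher and 1.55% lower by as much. Of 7 further classical phosphatases, Sprouty and SPRED genes 5 were measured and 4 of them were higher, against 47.8% of all measured genes. DUSP8 passed the floor through the knockdown array alone and so had to be higher, and 3 of the 4 above the floor in both arrays were higher. DUSP2, a nuclear inducible phosphatase, was at 6.58 in the knockdown and 6.29 in the control array, a difference of 0.29, which was 0.12 with the span trend removed. DUSP8, which acts on JNK and p38, was at 5.96 in the knockdown and 5.65 in the control array, and since that control signal was below the floor, the size of its difference, 0.31, is uncertain. DUSP9 and DUSP7, the cytoplasmic relatives of DUSP6, stood at 0.23 and 0.04, and DUSP16, a JNK phosphatase, at -0.03. SPRY3 and SPRED3 were below the floor in both arrays. Over all 10 classical phosphatases 8 were above the floor in both arrays, and 6 of those were higher. The atypical and slingshot phosphatases, most of which do not act on ERK, had 4 of 9 measured genes higher and a median of -0.07, with DUSP12 lowest at -0.32. DUSP15, at 0.21, passed the floor through the knockdown array alone, and of the 8 above it in both arrays 3 were higher.

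The genes that ERK signalling is known to induce were higher more often than not, and their largest differences were of the size of that of DUSP1. Of the 44 listed symbols, where CYR61 is an older name of CCN1, 40 had a row and 32 were measured. Of these, 24 were higher in the knockdown array and 8 lower, with a median of 0.16, against 47.8% higher and a median of -0.01 over all measured genes. Counted as measured through the knockdown array alone were 3 of the 32, which had to be higher, MAFF among them. Of the 29 above the floor in both arrays 21 were higher, with a median of 0.13, against 45.7% of the 10140 genes above it in both. At least 1.5-fold higher were 3, and none was as much lower, beside 1.08% of all measured genes higher and 1.55% lower. ARC, a neuronal early gene, was at 6.86 in the knockdown and 6.19 in the control array, a difference of 0.67. ZFP36, which speeds the decay of inflammatory mRNAs, was at 8.40 in the knockdown and 7.79 in the control array. FOSL1, an AP-1 subunit stabilised by ERK, was at 7.80 in the knockdown and 7.20 in the control array, and 1 of the 500 coding genes nearest in span was at least as high. IER3, an early gene whose product binds ERK, stood at 0.57, but its 6 rows ranged from 0.42 to 0.67. MAFF, a small MAF protein, was at 6.26 in the knockdown and 5.80 in the control array, the control signal being below the floor.

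This list too is made of short genes, with a median span of 8.27 kb, against 27.4 kb over the measured coding genes. The medians of the genes nearest in span centred on 0.06 for it, and 22 of the 32 were above the median of their own neighbours. With the span trend removed the median of the list was 0.11, beside -0.01 over all measured genes, and 68.8% of the list were higher. The share of all measured genes higher was not computed under that setting. The values of the list keep the 3 genes measured through the knockdown array alone. They were not recomputed for the 29 above the floor in both arrays. With the span trend removed ARC, ZFP36 and FOSL1 stood at 0.54, 0.45 and 0.54, each under the 1.5-fold line. With trends over signal and span removed FOSL1 was past that line at 0.61, while ARC at 0.54 and ZFP36 at 0.53 were under it.

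The genes that usually stand beside DUSP4, DUSP6, SPRY2 and SPRY4 in transcript signatures of ERK activity differed little, in both directions. Of those measured, ETV4 and CCND1 lay outside the within-array SD of 0.133 in the signals as deposited, and ETV5, PHLDA1 and EPHA2 inside it. That division changed with the scaling: PHLDA1 was at 0.18 with the signal trend removed, and CCND1 at 0.12 with median centring. ETV4, an ETS factor induced by ERK, was at 7.21 in the knockdown and 7.04 in the control array, a difference of 0.17. Its relative ETV5 was at 6.72 in the knockdown and 6.80 in the control array, a difference of -0.09. PHLDA1 and the cyclin gene CCND1 stood at 0.10 and 0.20, and the receptor EPHA2 at -0.10. EPHA4 was below the floor in both arrays. Of these 6 genes, 5 were measured and 3 of the 5 were higher, against 47.8% of all measured genes. In the signals as deposited the direction was mixed here, as it was among the 10. With trends over signal and span removed all 5 were higher, with ETV5 at 0.01 and EPHA2 at 0.02. The median of all measured genes was -0.01 under that setting.

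Upstream of the feedback genes, the kinases of the core cascade with a row of their own differed by less than 0.2. MAP2K1 and MAP2K2, which code for MEK, stood at -0.01 and 0.06, ARAF at 0.04, and MAPK3, which codes for an ERK kinase, at 0.19, with 7.61 in the knockdown and 7.42 in the control array. Of the 24 measured genes of the cascade list 15 were higher and 9 lower, against 47.8% higher among all measured genes. The median of the list was 0.07. With median centring it was -0.01, where that of all measured genes was -0.10. These genes are long, with a median span of 87.1 kb, and the cascade median rose to 0.13 with the span trend removed. With trends over signal and span removed it was 0.17 and 79.2% were higher. The median of all measured genes was -0.01 there, and their share higher was not computed. The ERK-induced list had medians of 0.11 and 0.13 under those settings, so it was not above the cascade list there. RRAS, a RAS-related GTPase, was the only gene of the list at least 1.5-fold different, beside 1.08% of all measured genes higher and 1.55% lower. It was at 8.51 in the knockdown and 7.87 in the control array. That difference of 0.64 was 0.54 with the span trend removed and 0.56 with median centring, both under the 1.5-fold line. RRAS was past that line at 0.61 with both trends removed, 0.70 with quantile normalisation and 0.72 with the signal trend removed. SRF, the serum response factor that drives many early genes, was at 7.45 in the knockdown and 6.99 in the control array. The exchange factor SOS1 stood at 0.35, the adaptor GRB2 at -0.32 and the ERK-activated kinase RPS6KA3 at -0.41.

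Other RAS and ERK inhibitors and modulators were 10 higher and 9 lower of 19 measured, near the 47.8% higher among all measured genes. The median was 0.03, and none passed 1.5-fold, beside 1.08% of all measured genes higher and 1.55% lower by as much. With both trends removed 68.4% were higher, with a median of 0.05 beside -0.01 over all measured genes. The share of all measured genes higher was not computed under that setting. Of the 19, 2 were measured through the knockdown array alone and had to be higher. Measured through the control array alone was 1, which had to be lower. Of the 16 above the floor in both arrays 8 were higher and 8 lower. CBLB, a ubiquitin ligase for receptors, stood at 0.46, PEA15, which holds ERK in the cytoplasm, at 0.44, and RASAL2, a RAS GTPase activator, at 0.33. PEBP1, the RAF kinase inhibitor protein, stood at -0.39 and PPP2CA, a catalytic subunit of protein phosphatase 2A, at -0.32. The JNK and p38 genes, which share DUSP1 and DUSP10 as inhibitors, were 10 higher and 8 lower of 18 measured. This share too is near that of all measured genes. Their median was 0.04, or -0.06 with median centring, where that of all measured genes was -0.10. With both trends removed 66.7% were higher, with a median of 0.03 beside the same -0.01 over all measured genes. Of the 16 above the floor in both arrays 9 were higher and 7 lower. JUND stood at 0.29, or 0.11 with the span trend removed, ATF3 at 0.27, with a control signal of 5.74, below the floor, MAPKAPK3 at 0.26, MAP3K20 at -0.24 and MAP3K5 at -0.49, with a knockdown signal of 5.68, below the floor.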

How the data were processed

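The authors deposited log2 signals for 70523 rows of each array. The submitters' processing notes name Affymetrix Expression Console, with no version, background correction or normalisation given in the sources used here. That the scale is log2 was judged from its range, 0.326 to 13.3. Per the labels' protocols, 100 ng of total RNA was labelled with biotin for each array. The number of arrays limits the precision.

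Rows were named through the platform annotation, which gave 1 symbol for 23784 rows, several for 1540 and none for 45199, and symbols were updated through the RefSeq table of GRCh38.p14. The row with the highest mean stood for a gene with several rows. The floor was the 50th percentile of the higher signal over genes. Gene spans and promoters come from RefSeq on GRCh38.p14. The trends over signal and span were lowess curves with a fraction of 0.3. No test between conditions was possible with 1 array each. The members and lists were chosen with earlier results of these data known, and the span trend was looked for after the data had been seen. The text names GOLM1, the 10 members, their 7 relatives, the core kinases and signature genes, and up to 5 measured genes of each pathway list with the largest difference. CYR61, KRT8, KRT18, APOH, albumin, AFP and PTPRC were named outside that rule. The counts and the removal of trends were tested on simulated data. The software was pandas 2.3.3, numpy 2.4.6, statsmodels 0.14.6, scipy 1.17.1 and matplotlib 3.10.9 under Python 3.11.15.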

Additional observations from a re-analysis of the deposited data

How the results depend on the processing

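No paired analysis was possible because each condition had 1 array, and no replicate could be left out. A value is said to have moved when it shifted by more than the within-array SD of 0.133, or a count or share by more than 1.5 times. Of 507 values recomputed under the alternatives 463 did not move, 44 moved and none past 1.5-fold changed sign. The cause of each move was not tested, except where fewer or other genes were counted. The span alternatives and the restrictions to coding genes and to genes above the floor in both arrays were added after seeing the data. Genes at least 1.5-fold higher numbered 121, and 66 with median centring, 261 with no floor, 75 with the floor at the 75th percentile, 59 with the span trend removed, 75 with both trends removed and 71 among coding genes. Genes at least 1.5-fold lower numbered 174, and 356 with median centring and 281 with no floor. The number of the 10 genes at least 1.5-fold higher was 0 with median centring, with the span trend removed and with both trends removed. DUSP1 moved to 0.45 with the span trend removed. DUSP10 moved to -0.29 with the signal trend removed and -0.22 with both. With both trends removed SPRY2 stood at 0.0077, SPRED1 at -0.021 and GOLM1 at -1.51. The phosphatase minus Sprouty and SPRED difference was 0.19 with means, 0.39 with the higher floor and 0.20 with both trends removed, and the Sprouty and SPRED median was -0.24 with the higher floor, which fewer members passed. The share of atypical phosphatases higher was 44.4%, and 11.1% with median centring and 28.6% with the higher floor. Their median was -0.16 with median centring, beside -0.10 over all measured genes, and -0.09 with the higher floor, beside -0.07. The share of all measured genes higher was not computed under these settings. With the higher floor DUSP7 alone, at 0.04, was left of the other family genes, so their share of 100.0% is that gene. With that floor the share was 25.0% for the JNK and p38 genes, whose median was -0.08, beside -0.07 over all measured genes. Of 258 recomputed values of named genes outside the 10, 19 moved. With the span trend removed DUSP2 stood at 0.12, JUND at 0.11, IER3 at 0.36, ZFP36 at 0.45 and DUSP23 at -0.34. With the signal trend removed DUSP8 stood at 0.18, SPRY3 at -0.41, SPRED3 at -0.31 and EPHA4 at -0.11. With both removed SOS1 stood at 0.49, MAP2K1 at 0.14, GRB2 at -0.17 and RPS6KA3 at -0.26, and the other 6 moves repeated DUSP2, DUSP8, JUND, EPHA4, SPRY3 and SPRED3.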
